A study of Rattus norvegicus with 939 samples.

Results

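The genes described are 10 chaperones and companion proteins of the endoplasmic reticulum: Hspa5, Hsp90b1, Pdia4, Dnajb9, Hyou1, Sdf2l1, Calr, Creld2, Dnajc3 and Herpud1. They were chosen by name from the platform annotation, with earlier results of these data known. Each was read from its probe set with the highest mean value, and together they make up 10 of the 14218 genes tested. All 10 were measured, and none was lost to a filter on low values.

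The series held 939 Affymetrix rat expression arrays of primary rat hepatocytes in culture. Treated cultures, 826 arrays in all, received 1 of 125 compounds in the vehicle DMSO for 0.67 or 1 d, and 113 control arrays came from cultures given DMSO alone at 0 µM for the same times. Compounds were compared with the control arrays whose description named them, which gave 147 comparisons of a compound, a dose and a campaign, most with 6 treated arrays. The labels give neither the strain, sex and age of the rats nor the animal or culture behind a treated array, so the p-values measure the spread between arrays, part of which may be technical. Arrays fell into 5 campaigns by hybridization date, and 128 of the 147 comparisons lay in campaigns 1 to 3. Campaign 4 repeated chlorpromazine at 1 d, and campaign 5 ran 6 compounds at 3 doses, 3 arrays a dose, at 1 d against 3 control arrays.

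These proteins fold, hold and quality-check the proteins that enter the secretory pathway, which in a hepatocyte carries albumin, apolipoproteins and clotting factors. When unfolded proteins build up in the endoplasmic reticulum, sensors in its membrane start the unfolded protein response. ATF6 is cut to a transcription factor, IRE1 splices the mRNA of XBP1, and PERK slows translation and raises ATF4. ATF6 and XBP1 act on chaperone genes through endoplasmic reticulum stress elements in their promoters, whereas ATF4 acts mostly on genes of amino acid supply and stress, and cytosolic stresses can also raise it.

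The promoters are shown because most of these genes carry a stress element close to the transcription start, which few other promoters do. All 10 members matched the RefSeq promoter table (build GRCr8), whose windows hold the 250 bases before and the 50 bases after each start. The element ERSE, CCAAT and CCACG with 9 bases between them, was searched on both strands and lay in 5 of the 10 member promoters, against 21 of 27457 promoters (0.0765%). The related element ERSE-II, ATTGG and CCACG with any 1 base between them, lay in 2 members, Hyou1 and Herpud1, against 15 promoters (0.0546%). One or the other was present in 7 of the 10 members and in 36 promoters in all (0.131%). TGACGTGG, a site named UPRE, was found in Hyou1 alone among members and in 0.637% of promoters, and it overlaps an ERSE-II there. TGATGNAA, a site named CARE to which ATF4 and C/EBP proteins bind, was found in Herpud1 alone among members and in 3.82% of promoters. Pdia4, Sdf2l1 and Dnajb9 held none of these 4 letter patterns in this window, which says nothing of more distant or looser matches. The 250 bases before the start are printed 5' to 3' on the strand of the gene, with matches to these patterns on either strand in capitals, for the 7 members with an ERSE or ERSE-II and for Dnajb9, whose values differ most from the rest.
Hspa5, chr3:38452766-38453015, plus strand: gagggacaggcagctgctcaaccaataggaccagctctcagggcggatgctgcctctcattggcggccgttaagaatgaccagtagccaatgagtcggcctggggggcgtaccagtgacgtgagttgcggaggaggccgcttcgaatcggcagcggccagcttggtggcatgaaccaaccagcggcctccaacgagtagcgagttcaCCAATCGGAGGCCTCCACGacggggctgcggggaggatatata
Hsp90b1, chr7:23012294-23012543, minus strand: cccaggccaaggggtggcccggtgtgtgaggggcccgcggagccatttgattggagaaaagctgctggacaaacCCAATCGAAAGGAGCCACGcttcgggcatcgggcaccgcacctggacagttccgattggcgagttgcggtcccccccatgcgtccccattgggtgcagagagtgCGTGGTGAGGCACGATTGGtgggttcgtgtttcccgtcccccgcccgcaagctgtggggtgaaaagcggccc
Calr, chr19:40213117-40213366, plus strand: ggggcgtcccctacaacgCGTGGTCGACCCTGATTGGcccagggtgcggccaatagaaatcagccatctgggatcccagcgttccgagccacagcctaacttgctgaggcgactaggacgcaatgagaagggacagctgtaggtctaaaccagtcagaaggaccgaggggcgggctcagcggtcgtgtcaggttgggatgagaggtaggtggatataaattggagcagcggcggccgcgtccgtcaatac
Creld2, chr7:121789134-121789383, plus strand: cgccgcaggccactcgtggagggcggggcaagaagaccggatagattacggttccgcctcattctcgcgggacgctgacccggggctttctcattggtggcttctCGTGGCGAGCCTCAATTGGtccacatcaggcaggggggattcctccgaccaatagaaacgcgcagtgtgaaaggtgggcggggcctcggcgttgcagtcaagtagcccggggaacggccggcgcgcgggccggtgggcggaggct
Dnajc3, chr15:102432417-102432666, plus strand: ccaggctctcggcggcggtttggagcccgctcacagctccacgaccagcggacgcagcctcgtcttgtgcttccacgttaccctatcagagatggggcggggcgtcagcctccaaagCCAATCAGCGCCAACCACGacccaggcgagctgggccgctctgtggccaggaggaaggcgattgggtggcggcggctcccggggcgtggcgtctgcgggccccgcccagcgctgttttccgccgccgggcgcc
Hyou1, chr8:53602632-53602881, plus strand: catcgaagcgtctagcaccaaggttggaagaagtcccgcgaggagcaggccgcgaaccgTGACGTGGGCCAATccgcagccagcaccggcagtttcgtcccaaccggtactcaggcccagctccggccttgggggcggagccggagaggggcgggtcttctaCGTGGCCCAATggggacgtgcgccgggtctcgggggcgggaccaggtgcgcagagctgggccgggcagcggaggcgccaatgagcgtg
Herpud1, chr19:10614708-10614957, minus strand: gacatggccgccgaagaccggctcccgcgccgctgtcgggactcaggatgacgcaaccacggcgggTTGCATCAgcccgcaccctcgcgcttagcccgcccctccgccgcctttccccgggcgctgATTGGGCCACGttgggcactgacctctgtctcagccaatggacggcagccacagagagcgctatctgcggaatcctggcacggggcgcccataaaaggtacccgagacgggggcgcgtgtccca
Dnajb9, chr6:67002052-67002301, minus strand: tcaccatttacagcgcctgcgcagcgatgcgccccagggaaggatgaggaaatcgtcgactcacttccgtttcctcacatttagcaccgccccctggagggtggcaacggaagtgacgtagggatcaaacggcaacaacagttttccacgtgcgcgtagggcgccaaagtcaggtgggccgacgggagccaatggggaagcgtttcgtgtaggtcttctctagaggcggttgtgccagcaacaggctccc

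The ERSE of Hspa5 lies at bases -43 to -25 from the start, and Hsp90b1 carries 2, on opposite strands. In Calr and Creld2 the element is read on the other strand, so its capitals begin with CGTGG. Hyou1 carries 2 ERSE-II, both read on the other strand, the first of which joins the UPRE into 1 run of capitals. In Herpud1 the first run of capitals is the CARE, read on the other strand, and the second is the ERSE-II. A match is a description of the letters and no measure of binding.

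In cultures given DMSO alone, the members were among the brighter genes of the arrays. At 1 d the mean log2 signal of Hspa5, the major Hsp70 chaperone of the endoplasmic reticulum, was 11.97 ± 0.30 (SD, n = 52), and that of Hyou1 was 8.51 ± 0.60. Among all genes, Hspa5 lay at a percentile of 98.4 and Hyou1, the lowest member, at 71.6, and Hsp90b1 was the highest at 98.5. Hepatocyte markers lay at a median percentile of 99.1, and markers of Kupffer cells, endothelial cells, stellate cells and cholangiocytes at 35.8, 28.2, 32.4 and 25.5. In bulk cultures, fewer cells of a type and less RNA per cell cannot be told apart. Array medians ran between 5.41 and 5.73, and the median change of all genes lay between -0.02 and 0.14 in the 128 comparisons, past 0.1 in 1 of them.

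A few arrays stood apart and touch values given here. Of the 15 arrays hybridized on 1 day of campaign 1, 2 went against their labels. The array labelled gemfibrozil at 1 d had a Dnajb9 log2 signal of 9.53, where the other 5 gemfibrozil arrays lay at 11.77 to 12.36. The array labelled clofibrate at 0.67 d had 12.06, where the other 5 clofibrate arrays lay at 9.21 to 9.53. Over all genes, the difference of each array from the campaign 1 control mean at its time was correlated with the mean difference of the other arrays of both compounds, genes not being independent replicates. The array labelled gemfibrozil had r = -0.08 with the other gemfibrozil arrays and 0.41 with the clofibrate arrays. The array labelled clofibrate had r = 0.90 with the gemfibrozil arrays and 0.12 with the other clofibrate arrays, so each lay closer to the arrays of the other compound. The labels were kept, so the gemfibrozil and clofibrate values of campaign 1 are in doubt. Without both arrays the change of Dnajb9 was 2.52 in place of 2.14 on the log2 scale with gemfibrozil and -0.27 in place of 0.15 with clofibrate, that of Herpud1 was 2.39 in place of 2.05 and 0.12 in place of 0.57, and Pdia4 was called higher with gemfibrozil (1.08, adjusted p = 0.00698). In campaign 5, the methapyrilene arrays numbered 2 ran opposite to the other arrays of that compound across doses, as given with the dose series.

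Compounds raised these genes far more often than they lowered them. A gene was called higher or lower where it changed at least 1.5-fold and limma gave an adjusted p no larger than 0.01 (Benjamini-Hochberg, over the 14218 genes). Of the 1280 member values in campaigns 1 to 3, 293 were called higher (22.9%), against 3.67% of all gene values, and 5 were called lower (0.391%), against 4.92% of all gene values. The members were chosen with earlier results of these data known, so these shares are a description and no independent test. At least 1 member was higher in 79 of the 128 comparisons, at least 5 in 22, and all 10 in 8. At least 1 was lower in 3 comparisons, and no comparison had 5 lower. No member was called in 48 comparisons, and 10 comparisons called no gene at all in either direction.

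**Figure D1:**
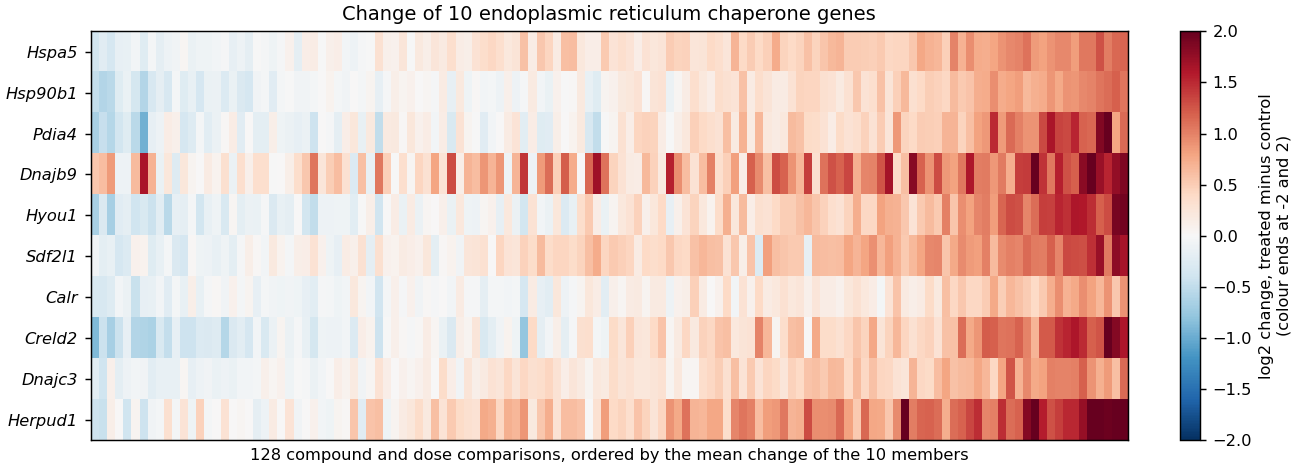
Log2 change of the 10 genes (rows) in the 128 comparisons of campaigns 1 to 3 (columns), treated minus control, ordered by the mean change of the 10. Red marks higher and blue lower in treated cultures. The Dnajb9 and Herpud1 rows are red over a wider stretch of columns than the other 8, and the right-hand columns are red in all rows.

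Dnajb9 and Herpud1 were called higher most often. Dnajb9, a J-domain co-chaperone of Hspa5 that binds misfolded proteins, was higher in 74 comparisons and lower in 0, and 0.0211% of all genes were called higher more often. Herpud1, a membrane protein that helps build the degradation complex for misfolded proteins, was higher in 53 and lower in 0, and 1.13% of all genes were called higher more often. The average gene was called higher in 4.70 and lower in 6.30 of the 128 comparisons, with a median of 0 for both. The remaining counts ran between 30 higher calls for Hspa5 and 12 for Calr. The counts of every member depend on the bounds: at a 2-fold bound Dnajb9 was called higher in 44 comparisons, Dnajc3 in 5 and Calr in 0.

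Among the Hsp70 system, Hspa5 had a mean change of 0.35 ± 0.37 on the log2 scale (SD over 128 comparisons, which share controls) and its largest called change with valdecoxib at 450 µM. Its lowest, median and highest log2 signals were 13.12, 13.25 and 13.48 in 6 valdecoxib arrays, against 11.63, 11.99 and 12.33 in 14 control arrays. All valdecoxib arrays lay above all control arrays, a 2.41-fold difference (adjusted p = 1.76e-11). Hyou1, a large Hsp70 relative that exchanges nucleotide on Hspa5, was higher in 24 comparisons and lower in 2. Its largest called change was with isotretinoin at 500 µM, where 6 treated arrays lay at 10.09 to 10.85 and 8 control arrays at 8.10 to 9.18, a 3.79-fold difference (adjusted p = 9.93e-08). Diethylstilbestrol at 120 µM, a synthetic estrogen, followed 4,4'-methylenedianiline with 3.06-fold (adjusted p = 0.00218), against 3.75% of all genes called higher. For Hyou1 the arrays of both these compounds overlapped with the controls. Dnajc3, a co-chaperone also known as an inhibitor of PERK, was higher in 27 comparisons. Cerivastatin at 250 µM gave its largest called change, with 11.59, 11.93 and 12.15 in 6 treated arrays against 9.96, 10.76 and 11.18 in 6 control arrays. The groups did not overlap, and the difference was 2.39-fold (adjusted p = 0.0011). Sdf2l1, which binds Hspa5 and its J-domain partners, was higher in 25 comparisons and changed most with 4,4'-methylenedianiline at 296 µM (3.46-fold, adjusted p = 2.28e-05), with 3.30-fold for valdecoxib and 3.14-fold for isotretinoin. Of these, the 4,4'-methylenedianiline arrays overlapped with the controls. Of all genes, 6.71% were called higher with 4,4'-methylenedianiline and 2.92% with cerivastatin.

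Dnajb9 changed most with gemfibrozil at 2000 µM, where 10.7% of all genes were called higher and 1 array held much of the spread (4.41-fold, adjusted p = 0.000775). Its lowest, median and highest log2 signals were 9.53, 11.83 and 12.36 in 6 gemfibrozil arrays, against 8.74, 9.49 and 10.06 in 8 control arrays. The lowest array, the one labelled gemfibrozil whose values went against its label, lay within the controls, and without it and the clofibrate array the change was 2.52. Vinblastine at 45 µM gave nearly the same change with less spread, with 11.56, 11.88 and 12.00 in 6 treated arrays against 9.22, 9.70 and 10.29 in 16 control arrays. Here the groups did not overlap, and the difference was 4.26-fold (adjusted p = 5.79e-14).

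Among the folding enzymes and lectins, Pdia4, a protein disulfide isomerase, was higher in 17 comparisons and lower in 2. With colchicine at 2000 µM its log2 signals were 12.03, 12.16 and 12.40 in 6 treated arrays, against 8.17, 10.15 and 11.05 in 28 control arrays. Every treated array lay above every control array, a 4.47-fold difference (adjusted p = 1.49e-09). Creld2, which also acts on disulfide bonds, was higher in 14 comparisons and lower in 1, and it too changed most with colchicine at 2000 µM (4.06-fold, adjusted p = 9.32e-08), ahead of 4,4'-methylenedianiline (3.56-fold). Hsp90b1, the Hsp90 of the endoplasmic reticulum, was higher in 17 comparisons, at most 2.29-fold with 4,4'-methylenedianiline (adjusted p = 0.000226). For both Creld2 and Hsp90b1 the 4,4'-methylenedianiline arrays overlapped with the controls. Calr, a calcium-binding lectin that folds glycoproteins, was higher in 12 comparisons and had the smallest range. Its largest called change was 1.91-fold with amineptine at 1667 µM, where 6 treated arrays lay at 12.15 to 12.63 and 6 control arrays at 11.33 to 11.72 (adjusted p = 4.25e-06). Cyclosporin A at 10 µM, whose arrays overlapped with the controls, and isotretinoin followed with 1.90-fold and 1.86-fold.

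Herpud1 held the largest called change of any member. With 4,4'-methylenedianiline at 296 µM, an aromatic amine that injures bile ducts, its log2 signals were 11.37, 12.33 and 12.73 in 6 treated arrays, against 8.76, 9.06 and 10.18 in 12 control arrays. The lowest treated array lay above the highest control array, and the difference was 7.77-fold (adjusted p = 3.31e-09). Valdecoxib and vinblastine followed with 4.84-fold and 4.45-fold (adjusted p = 4.98e-12 and 2.52e-13).

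Isotretinoin at 500 µM, a retinoic acid used against acne, gave the highest mean change of the 10 members among the comparisons with all 10 higher, against 9.32% of all genes called higher in that comparison. The member changes ran between 0.90 for Calr and 2.14 for Herpud1, with a median of 1.39. For Dnajb9 the log2 signals were 11.38, 11.74, 11.81, 11.44, 11.45 and 11.72 in the 6 isotretinoin arrays, against 9.07 to 10.26 in the 8 control arrays. All 10 members lay above all controls in every treated array, against 14.7% of all genes. The members moved with 17 of 20 ATF4 branch genes and 10 of 15 cytosolic heat shock genes, which were also higher. Of 21 hepatocyte markers 8 were lower, against 11.8% of all genes called lower. Of 10 stellate cell markers 3 were lower, of 7 cholangiocyte markers 1 was lower, of 8 endothelial markers 1 was higher and 1 lower, and of 10 Kupffer cell markers none was called. In lists this small, 1 lower call lies near the share over all genes. The part of these other groups in the result was not tested.

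Tretinoin, the stereoisomer of isotretinoin, was used at 156 µM, so its values stand beside those of isotretinoin without a comparison. All 10 members were higher, against 3.18% of all genes called higher, with changes of 0.70 to 1.53 and a median of 1.30. Pdia4 lay at 10.71, 10.92 and 12.50 in 6 tretinoin arrays and at 9.10, 10.07 and 10.70 in 24 control arrays, so that the lowest treated and the highest control array nearly met. Of the members, 7 did not overlap with controls, against 2.95% of all genes. ATF4 branch genes were higher in 14 of 20 cases and cytosolic heat shock genes in 1 of 15. Of 21 hepatocyte markers 4 were lower, against 5.2% of all genes called lower, and 1 was higher.

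Colchicine and vinblastine, both microtubule poisons, raised all 10 members, and both were described in depth because they had the most members higher. Griseofulvin at 75 µM, also a microtubule agent and taken up after its values were seen, had 0 members called by limma, against 0.542% of all genes called higher. Its member changes were 0.19 to 0.46, of which 6 had an unadjusted p under 0.05 with limma. The share of all genes at that unadjusted bound is not given here, so the 6 do not set the members apart. With colchicine at 2000 µM, 6.11% of all genes were called higher, the member changes ran between 0.85 and 2.16, and 8 members did not overlap with controls, against 5.36% of all genes. With vinblastine at 45 µM, 10.4% of all genes were called higher, the member changes ran between 0.80 and 2.15, and all 10 members did not overlap, against 12.3% of all genes. Dnajc3 lay at 11.67, 11.97 and 12.09 in 6 vinblastine arrays against 10.66, 11.01 and 11.32 in 16 control arrays. The median member change was 1.43 at 1 d and 0.93 at 0.67 d with colchicine, and 1.27 at 1 d and 1.06 at 0.67 d with vinblastine. The largest member change was that of Pdia4 with colchicine and that of Herpud1 with vinblastine. Hepatocyte markers were lower in 8 of 21 cases with colchicine and in 16 of 21 with vinblastine, against 9.94% and 17.1% of all genes called lower. ATF4 branch genes were higher in 11 of 20 and 15 of 20. With hybridization day as a fixed block, the median member change was 1.35 with colchicine and 0.84 with vinblastine, and all 10 members stayed called in both.

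Valdecoxib at 450 µM, a cyclooxygenase inhibitor, raised all 10 members, against 12.2% of all genes called higher. The changes ran between 0.66 for Calr and 2.27 for Herpud1, and 7 members did not overlap with controls, against 14.4% of all genes. The spread between its arrays was wide, and Pdia4 lay at 10.45, 11.45 and 12.47 in 6 treated arrays against 9.10, 9.58 and 10.37 in 14 control arrays. The median member change was 1.78 at 1 d and 0.95 at 0.67 d. Without the arrays numbered replicate 1, 7 members were called, and a number can stand on more than 1 array of a group. ATF4 branch genes were higher in 17 of 20 cases and heat shock genes in 2 of 15, the latter near the share of all genes. Of the markers, 8 of 21 for hepatocytes and 4 of 8 for endothelial cells were lower, against 13.3% of all genes called lower.

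**Figure D2:**
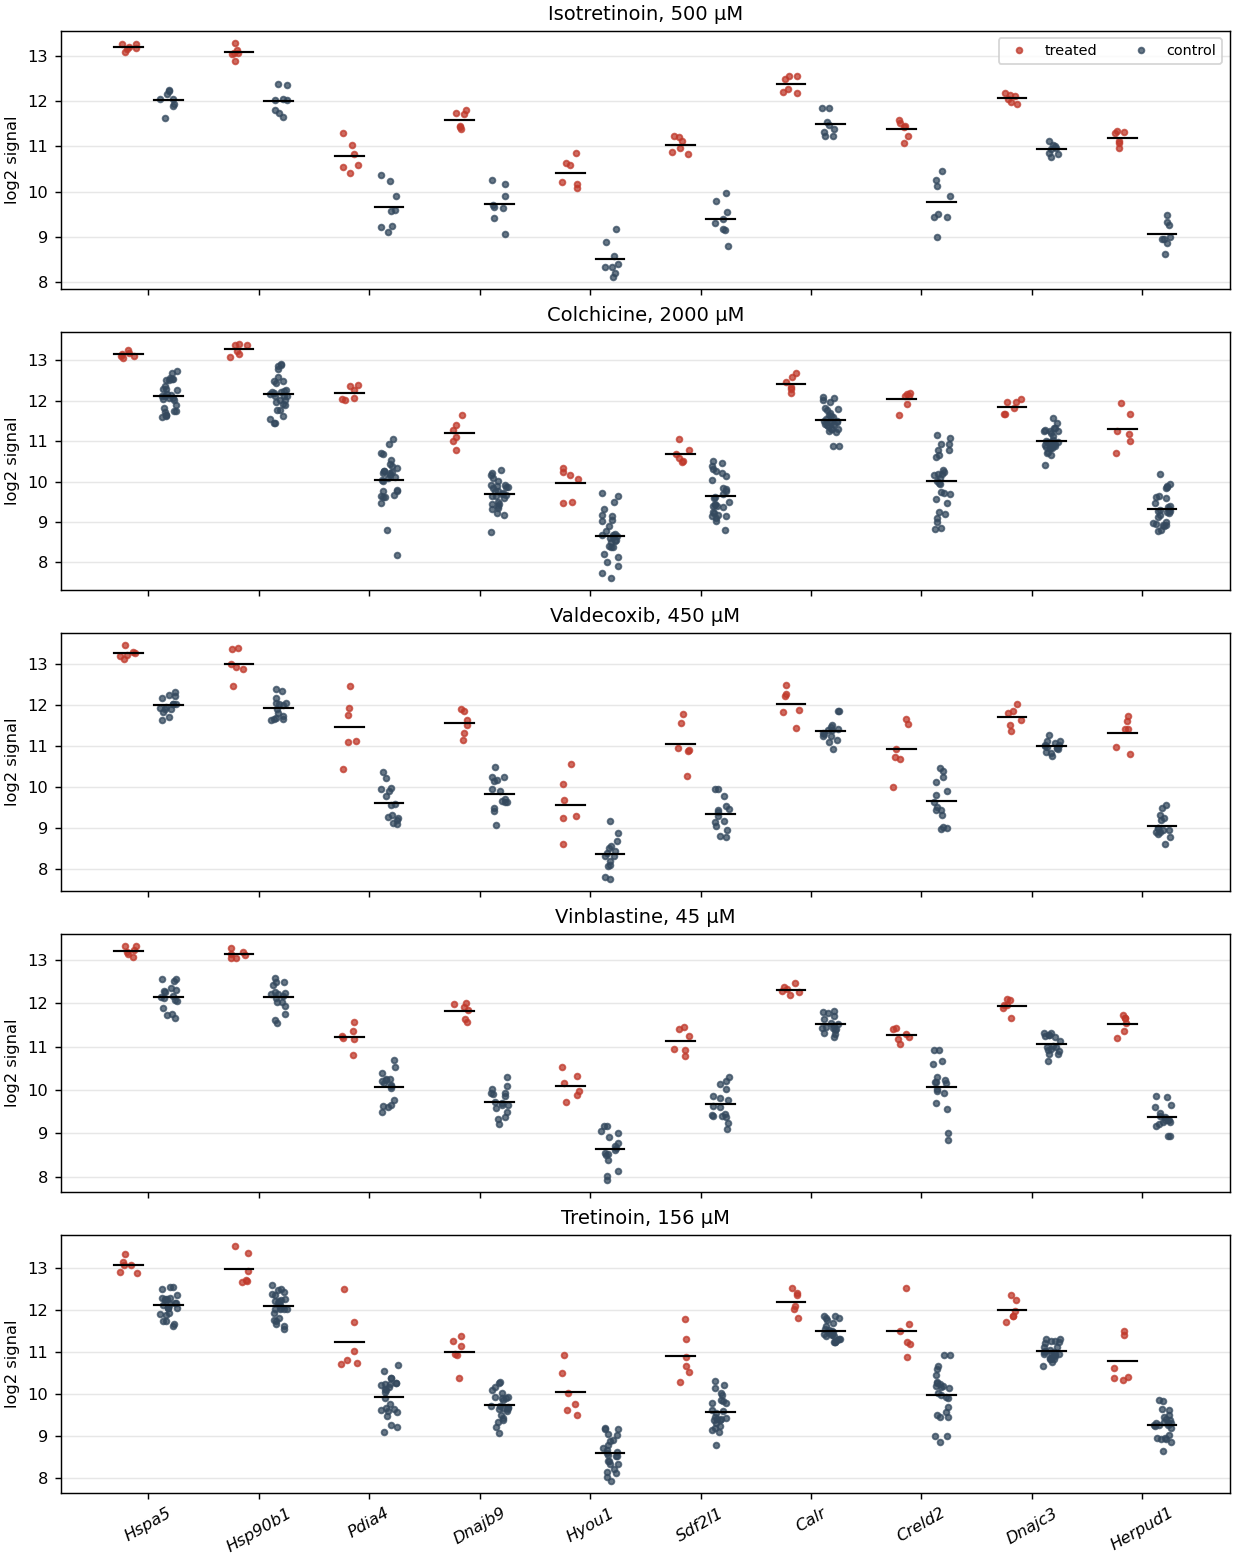
Log2 signal of each of the 10 genes in every treated array (red, left) and every matched control array (dark blue, right) for the 5 compounds examined in depth. Black bars are group means. With isotretinoin and vinblastine the treated points of all 10 genes lie above all control points.

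The other 3 comparisons with all 10 members higher were amineptine at 1667 µM, beta-estradiol at 250 µM and ceramide C2 at 44 µM, with median changes of 1.17, 1.13 and 1.00. In these, 8.79%, 6.01% and 1.65% of all genes were called higher. Cyclosporin A at 10 µM and zidovudine at 14800 µM raised 9 members, against 6.15% and 7.45% of all genes. Among all comparisons with 5 or more members higher, between 5 and 19 of the 20 ATF4 branch genes and between 0 and 10 of the 15 heat shock genes were also higher.

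Lower calls were few and small. Streptozotocin at 3000 µM, a methylating sugar derivative, lowered Pdia4 and Hyou1, against 3.11% of all genes called lower. Pdia4 lay at 9.18, 9.39 and 9.76 in 6 streptozotocin arrays, against 9.74, 9.94 and 10.69 in 8 control arrays, so the groups met at their edges (log2 change -0.65, adjusted p = 0.00153). Idarubicin at 1.5 µM, an anthracycline, lowered Hyou1 (-0.67, adjusted p = 0.000733) and Creld2 (-0.67, adjusted p = 0.00636), against 7.04% of all genes, while Dnajb9 was higher by 0.85, against 5.92% of all genes called higher. Hsp90b1 lay at 11.39, 11.47 and 11.59 in the 6 idarubicin arrays and at 11.66, 12.01 and 12.39 in 18 control arrays, below all controls but short of the 1.5-fold bound. In that comparison 4.49% of all genes lay below all controls. Cisplatin at 63 µM, which crosslinks DNA, lowered Pdia4 (-0.96, adjusted p = 0.00589), against 14.5% of all genes called lower, and raised Dnajb9 by 1.63, against 10.4% called higher. Dnajb9 lay at 11.05, 11.14 and 11.55 in 6 cisplatin arrays and at 9.08, 9.59 and 10.40 in 8 control arrays, without overlap, as did 14.1% of all genes on the higher side.

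These 5 lower calls rested on few arrays. Streptozotocin had 0 lower without the arrays numbered 3, idarubicin 0 without those numbered 1 and 1 without those numbered 2, and cisplatin 0 without those numbered 1 or 2 and 3 without those numbered 3. With hybridization day as a fixed block, streptozotocin and idarubicin had 0 lower and cisplatin 1, and with the day as a random effect the counts were 2, 2 and 1, as without it. Against all controls of the campaign, streptozotocin had 0 lower, idarubicin 4 and cisplatin 2. Monocrotaline at 333 µM, with 7.18% of genes lower, and pemoline at 833 µM, with none called, followed by mean change. Neither had a member called lower by limma, and monocrotaline raised Dnajb9 by 0.62, against 2.71% of all genes called higher. Dnajc3 lay below all controls with monocrotaline, against 7.99% of all genes.

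The 10 genes did not move as 1 block. Dnajb9 was the only member higher in 22 comparisons, Herpud1 in 1, and just these 2 were higher in 11. At least 1 of the other 8 was higher in 45 comparisons, in 41 of which Dnajb9 and in 41 of which Herpud1 was higher too. The other 8 made 166 of their 1024 values higher (16.2%). In 13 comparisons Dnajb9 was called higher while the median change of the other 9 was below 0. Over the 128 comparisons, which share control arrays, the Pearson correlation of a member with the mean of the rest ran between 0.86 for Pdia4 and 0.94 for Hsp90b1, and was 0.61 for Dnajb9. Pair by pair over the comparisons, the other 9 members correlated at 0.71 to 0.94, and Dnajb9 with each of them at 0.40 to 0.73. Over 104 vehicle arrays, without any compound, the signals of the other 9 correlated pair by pair at 0.54 to 0.94. That of Dnajb9 correlated with each of them at -0.06 to 0.37. The other 9 thus correlated without a compound too, so their values do not show that compounds moved them together. Dnajb9 correlated more over comparisons than over vehicle arrays, which are unlike units, and the cause was not tested.

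The ATF4 branch was called more often than the chaperones. Its 20 genes, a list that holds Ddit3, Trib3 and Atf3, had 44.2% of their values higher and 2.42% lower. Of the 64 comparisons with 10 or more of these genes higher, 20 had 5 or more members higher and 28 had no member higher besides Dnajb9 or Herpud1, 3 of which had none. In the other direction, 2 comparisons had 5 or more members but fewer than 10 ATF4 branch genes higher. Citalopram at 150 µM and nimesulide at 61.7 µM, chosen after their values were seen, each had 18 ATF4 branch genes higher and Dnajb9 as the only member, against 5.84% and 7.34% of all genes called higher. The median change of the other 9 members beside Dnajb9 was -0.16 and -0.12.

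**Figure D3:**
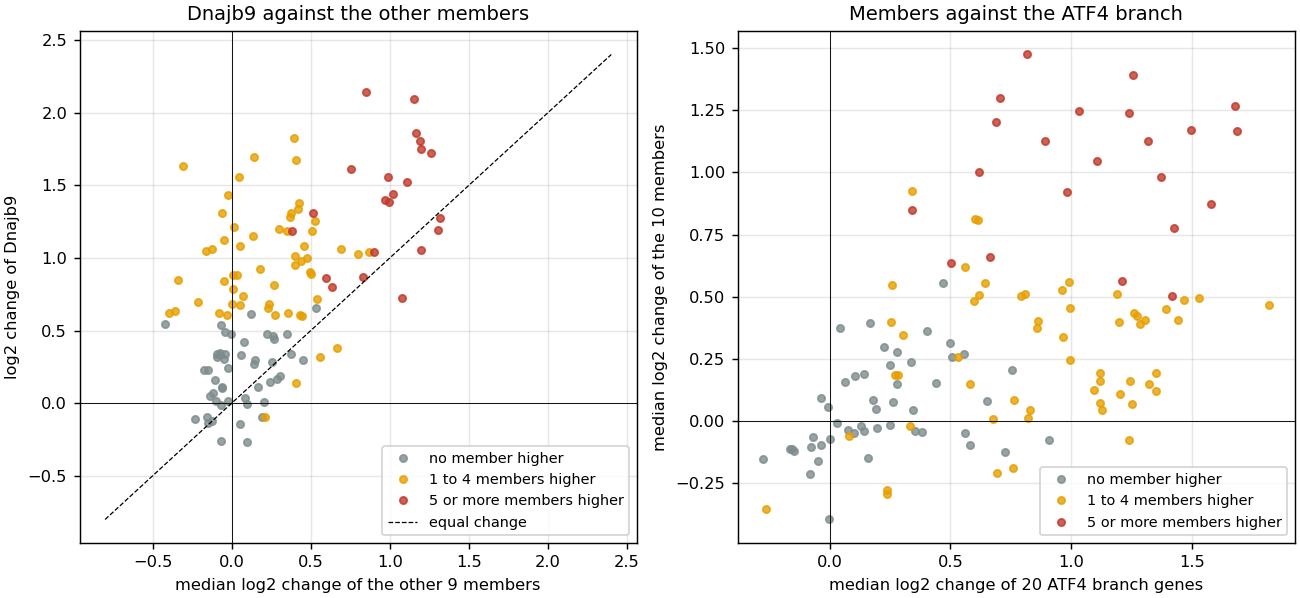
Left, log2 change of Dnajb9 against the median change of the other 9 members. Right, median change of the 10 members against that of 20 ATF4 branch genes. Each point is 1 of 128 comparisons (treated minus control), and comparisons share control arrays. Many points on the left lie above the dashed line of equal change, and on the right points reach high ATF4 branch values with members near 0.

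Other genes of the pathway are set against the shares over all genes, 3.67% higher and 4.92% lower. Of 16 genes of endoplasmic reticulum-associated degradation, 11.8% of values were higher and 0.83% lower, led by Selenos and Ube2g2 with 52 and 46 higher calls. Edem2, of the same list, was lower in 13 and higher in 1. Of 24 other folding factors, 4.49% were higher and 3.68% lower, near those shares. In that list Manf, a secreted protein of the endoplasmic reticulum, was higher in 38 comparisons and Txndc11 in 20, whereas Ero1b, an oxidase, and Uggt1, the glucosyltransferase that senses unfolded glycoproteins, were lower in 30 and 27. Of 25 genes of entry and glycosylation, 3.44% were higher, near the share over all genes, and 0.688% lower, with Sec61a1 and Ostc higher in 18 each and Sec63 lower in 11. The 10 sensors and factors had 17.3% higher and 3.05% lower, with Ddit3 higher in 74 and Atf4 in 60. Both are also in the ATF4 branch list, and Atf6 followed with 55. Creb3l3 was lower in 12 and higher in 12, and Mbtps1 was lower in 9. Xbp1, not among the most called genes of this list, was higher in 0 and lower in 6, and the array value does not separate its spliced form. The 15 cytosolic heat shock genes had 11% higher and 2.5% lower, led by Zfand2a with 78 and Dnajb1 with 30 higher calls. Zfand2a alone made 78 of the 212 higher calls of that list, and Hspa4 and Dnajb4 were lower in 22 and 13 and higher in 0.

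Against the same shares over all genes, hepatocyte markers had 2.16% of values higher and 17.3% lower. Cps1 and Apob were lower in 76 and 72 comparisons, whereas Tat and Pck1 were higher in 14 each and lower in 7 and 24. Alb, Apoh, Serpina1 and Ambp were called in no comparison. Kupffer cell markers had 2.11% higher and 5.7% lower, endothelial markers 0.879% and 10.9%, stellate cell markers 0% and 6.88%, and cholangiocyte markers 0.335% and 2.46%. A few genes held most of these calls. Cd68 was higher in 26 comparisons and lower in 0, and Lyz2 was lower in 39 and higher in 0. Kdr and Lyve1 were lower in 54 and 37 and higher in 0, and Eng was higher in 8 and lower in 4. Reln and Acta2 were lower in 52 and 16 and higher in 0, and Epcam was lower in 22 and higher in 3. The part of these cell types in the member changes was not tested.

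The genes most like the members in pattern were mostly of the same organelle. By Pearson correlation with the mean change of the 10 members over the 128 comparisons, Manf came first (0.95), followed by Sel1l (0.85), Syvn1 (0.85), Dnajb11 (0.85), Pdia6 (0.84), Sec61a1 (0.82), Amigo3 (0.82), Atg13 (0.80), Slc35b1 (0.79) and Sec23b (0.79). The least like were Lgals3bp (-0.78), Ifi30 (-0.70), C1s (-0.68), Sulf2 (-0.66) and Popdc2 (-0.66). Popdc2 was lower in 79 comparisons and C1s in 64.

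Member changes tended to be larger at 1 d than at 0.67 d, but no single difference passed the interaction test. With the 1 d arrays alone 212 member values were called higher, and with the 0.67 d arrays alone 135. The share of all genes called at each time alone is not given here, so these counts do not set the members apart. The interaction test, called at an adjusted p of 0.05 or less, found 0 of 1280 member differences between 1 and 0.67 d with limma, against 0.0329% of all gene tests called positive and 0.0595% negative. At an unadjusted p under 0.05 there were 31, of which 30 were larger at 1 d (2.42% of member tests, against 4.79% over all genes). The change of Creld2 had a median of 0.25 at 1 d and 0.04 at 0.67 d and was larger at 1 d in 109 of 128 comparisons. Herpud1 had medians of 0.61 at 1 d and 0.57 at 0.67 d and was larger at 1 d in 74. Each of the other 8 was larger at 1 d in 84 to 108 comparisons, which share controls within a control set. Such counts over all genes are not given here, so these do not set the members apart. Each change is treated minus control, and the control signals of most members were themselves lower at 1 d, as given below. The part of the controls in the larger changes at 1 d was not tested. With the replicate number as a block, 6 differences were called, all larger at 1 d, for Sdf2l1, Creld2 and Herpud1 with desloratadine, Creld2 with lomustine and valdecoxib, and Sdf2l1 with venlafaxine. The share of all genes called with the block is not given here, so whether these 6 exceed it is not known.

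**Figure D4:**
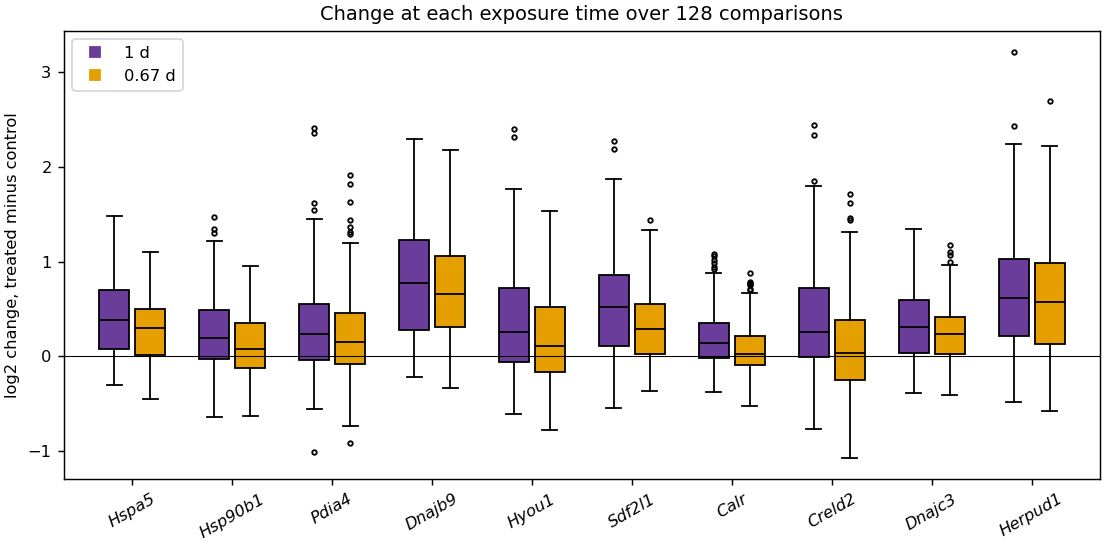
Log2 change of each gene over 128 comparisons, treated minus control, at 1 d (left box of each pair) and 0.67 d (right box). Boxes span the quartiles with the median as a line, whiskers reach 1.5 times that span, and circles are comparisons beyond. The 2 boxes of every gene overlap widely.

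Without a compound, the members were lower after the longer time in culture. In the 104 DMSO arrays of these 3 campaigns, fitted with the day of culture as blocks, 9 of the 10 members had an adjusted p of 0.01 or less and a lower mean at 1 d than at 0.67 d, against 16.7% of all genes in that direction. Dnajb9 had 9.44 ± 0.32 at 1 d and 9.89 ± 0.36 at 0.67 d (SD, n = 52 each), the largest difference (-0.45). Calr differed by -0.02 (adjusted p = 0.539, 95% interval -0.06 to 0.02). No member reached the 1.5-fold bound, which 0.281% of all genes reached in that direction.

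Doses were compared for 3 compounds of campaign 1 that were used at 2 doses. For zidovudine, an antiviral nucleoside, all 10 members were higher at 14800 µM than at 1000 µM (adjusted p of 0.05 or less), against 19.8% of all genes, with a median difference of 1.30. At 14800 µM Dnajb9 lay at 10.65, 11.11 and 11.41 in 6 arrays, at 1000 µM at 9.22, 9.49 and 9.84 in 6 arrays, and at 8.76, 9.67 and 10.29 in 34 control arrays. The high dose stood above both, whereas at the low dose no member was called and the changes ran between -0.30 and -0.03. For colchicine, 2000 µM exceeded 1000 µM in Dnajb9 by 0.66 and in Herpud1 by 0.96 (adjusted p = 0.0361 and 0.0164), against 4.9% of all genes. Already at 1000 µM, 8 members were higher than in controls, against 3.27% of all genes. The other 8 colchicine differences were 0.13 to 0.82 and did not pass. For gentamicin, 2900 µM exceeded 1000 µM in Hspa5 by 0.34, Dnajb9 by 0.84 and Sdf2l1 by 0.54 (adjusted p = 0.0401, 0.0182 and 0.0302), against 2.4% of all genes, although no member was called against controls at either dose. The 10 zidovudine calls held without any 1 replicate number. Colchicine had 0 calls without the arrays numbered 1 and 1 without those numbered 2 or 3, and gentamicin had 1 without those numbered 1 (Dnajb9) and 0 without those numbered 2 or 3.

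**Figure D5:**
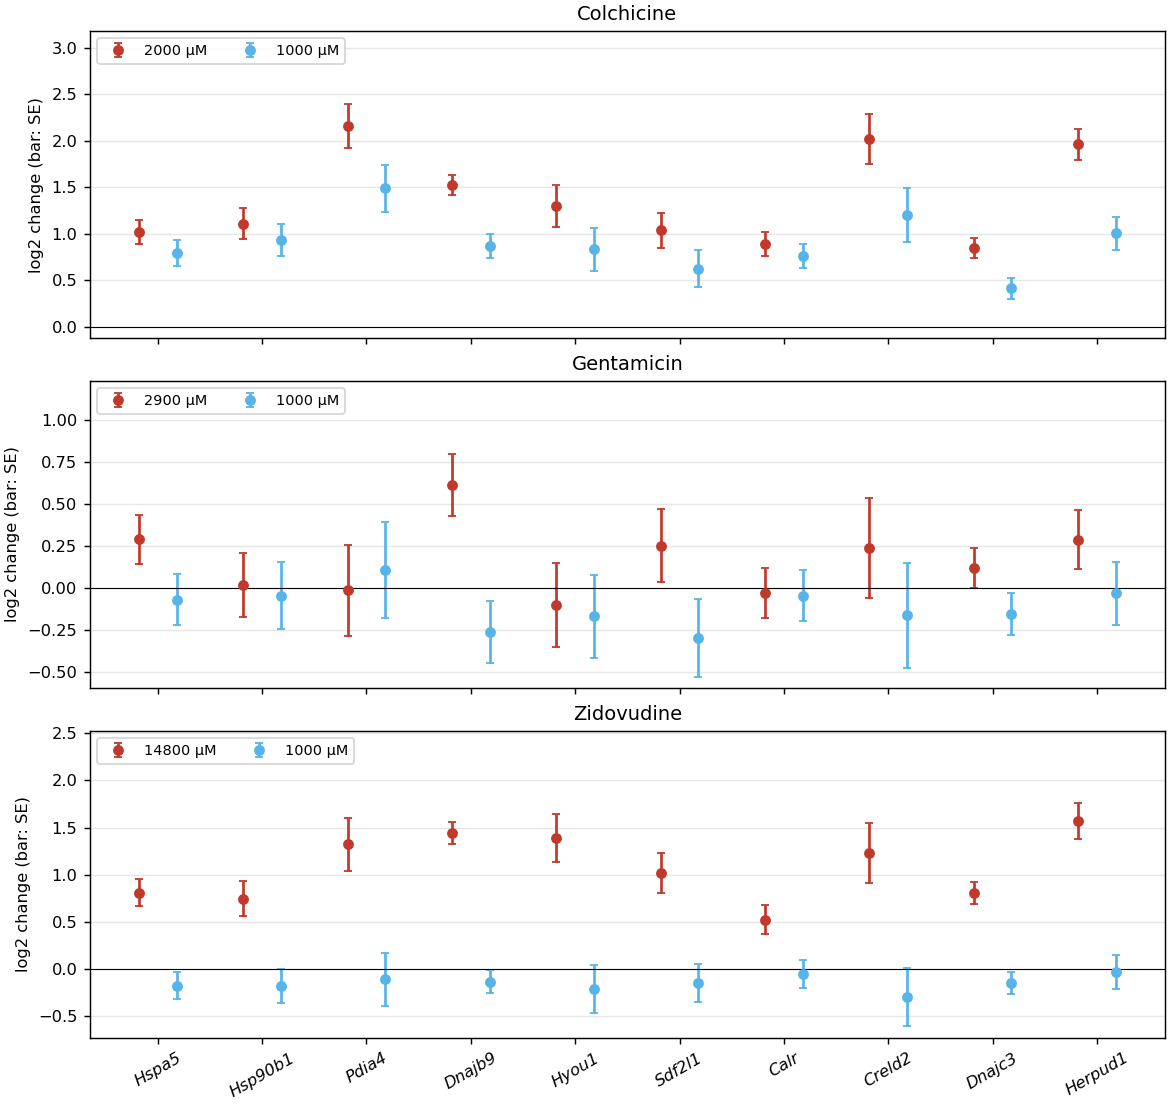
Log2 change from controls of each gene at the high dose (red, left) and the low dose (blue, right) of colchicine, gentamicin and zidovudine. Bars are standard errors from limma. With zidovudine the high-dose points of all 10 genes lie above the low-dose points, which lie between -0.30 and -0.03.

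The 3-dose series of campaign 5 gave no member a called dose slope (0 of 60 with limma), against 0.00117% of all gene tests. At an unadjusted p under 0.05 there were 2 (3.33% of member tests, against 2.88% over all genes). No member was called against controls at any dose in campaigns 4 and 5 either, where a comparison had 3 treated arrays in campaign 5. Allyl alcohol, busulfan, carbon tetrachloride and methapyrilene had no gene called at any dose there. Of all genes, 0.0141% were called higher with chlorpromazine, 0.0211% to 0.169% with clofibrate and 2.7% to 5.09% with omeprazole. The absence of member calls therefore says little where so few genes were called. Methapyrilene, an antihistamine, showed how far single arrays weighed. Dnajb9 at 100, 300 and 500 µM lay at 9.81, 10.49 and 10.99 in the arrays numbered 1, at 10.65, 9.14 and 8.88 in those numbered 2, and at 9.34, 9.92 and 10.53 in those numbered 3. The arrays numbered 1 and 3 were higher at each higher dose, and the arrays numbered 2 ran the other way. Over all arrays the limma slope was 0.10 per dose step (95% interval -0.54 to 0.74), and without the arrays numbered 2 it was 0.59 per step (adjusted p = 0.0202). The share of all genes called in the fit without those arrays is not given here, so whether Dnajb9 stood out there is not known.

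In campaigns 4 and 5 arrays of the same number deviated together, and with the number as a block 2 members were called. Herpud1 was higher by 0.61 with clofibrate at 500 µM (adjusted p = 0.00695, and 0.158 without the block), and Pdia4 was higher by 0.68 with omeprazole at 435 µM (adjusted p = 0.00204, and 0.261 without the block). With the block 1.51% and 7.15% of all genes were called higher in these comparisons, and without it 0.169% and 5.09%.

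Of 7 compounds run again at the same dose and time in a later campaign, none gave a member change that differed from the earlier campaign (0 of 70 with limma), against 0.001% of all gene tests called negative and 0% positive. At an unadjusted p under 0.05 there was 1 (1.43% of member tests, against 2.45% over all genes). The intervals were wide. For carbon tetrachloride at 775 µM the median member difference, later minus earlier, was -0.57, and Dnajb9 differed by -0.72 (95% interval -1.47 to 0.04). For omeprazole at 400 µM it was -0.41, and Dnajb9 differed by -0.52 (95% interval -0.99 to -0.05, adjusted p = 0.962).

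Related compounds were compared in 5 pairs at matched doses and times, with p-values adjusted over all genes and pairs. Among the anthracyclines at 1.5 µM, idarubicin lacks the methoxy group of daunorubicin, and doxorubicin carries a hydroxyl group more. Idarubicin gave lower changes than doxorubicin in Hsp90b1 by -0.46 ± 0.12 (SE, adjusted p = 0.018) and in Hyou1 by -0.68 ± 0.20 (adjusted p = 0.0425), against 5.69% of all genes. Hyou1 lay at 7.55, 7.86 and 8.18 in 6 idarubicin arrays and at 8.15, 8.48 and 8.93 in 6 doxorubicin arrays, nearly apart. Without the arrays numbered 1 or 3 neither was called, and Hyou1 was not called without those numbered 2 or with the array median subtracted. Idarubicin minus daunorubicin, with 6.84% of all genes called negative, gave no member called and 95% intervals of -0.49 to -0.01 for Hsp90b1 and 0.05 to 0.97 for Dnajb9. Without the arrays numbered 1, Dnajb9 was called in both idarubicin pairs, by 1.33 over daunorubicin and 1.22 over doxorubicin, where 6.33% and 5.51% of all genes were called positive over all arrays. Doxorubicin minus daunorubicin gave none called, with 0.113% of all genes negative, and Hyou1 differed by 0.20 (95% interval -0.30 to 0.70).

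Azathioprine, which releases 6-mercaptopurine in the body, was set against 6-mercaptopurine at 0.5 µM. No member was called, against 0.0211% of all genes positive, and the 10 differences ran between -0.25 for Dnajb9 (95% interval -0.57 to 0.08) and 0.17 for Sdf2l1 (95% interval -0.39 to 0.74). Cerivastatin and atorvastatin at 250 µM, 2 statins from different campaigns, each raised members, 8 and 5 of 10, against 2.92% and 2.36% of all genes. Their differences, cerivastatin minus atorvastatin, were not called, against 1.3% of all genes positive, and ran between -0.37 for Herpud1 (95% interval -0.94 to 0.20) and 0.48 for Dnajc3 (95% interval -0.0028 to 0.95). Compound and campaign cannot be told apart there.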

How the data were processed

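RNA of primary rat hepatocytes was measured on 939 Affymetrix rat expression arrays. The deposited values are log2 signals per probe set that the authors made with RMA per the labels (the methods of the study name frma), and their scale was kept. The build, tool version and background setting are not given in the sources used here. No column held comparisons by the authors.

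Of 31099 probe sets, 20832 had 1 gene symbol, 436 several and 9831 none. The 1-symbol probe set with the highest mean stood for its gene, which left 14218 genes. Hyou1 had 2 probe sets and the other members 1. Each compound, dose and campaign was fitted with limma 3.58.1 in R 4.3.3 (lmFit and eBayes, two-sided) against the controls whose description named it, with exposure time as covariate. Control descriptions that number TGF Beta-1 and Mln-518 as a running series were read as those compounds. Calls needed an adjusted p (Benjamini-Hochberg, over all genes) of 0.01 or less and 1.5-fold. Interactions, dose slopes, dose, repeat and pair contrasts were called at 0.05 or less. RMA sets arrays to a common distribution, so a shift of most genes would be hidden, and low signals have understated fold changes. The number of arrays limits the precision. The scripts were tested on simulated data.

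Numbers paired arrays in campaigns 4 and 5, where 6 of 6 and 53 of 54 pairs of the same number correlated over 0.1 in their deviations from group means and 55 of 57 campaign 5 arrays shared their hybridization day with the arrays of their number. In campaigns 1, 2 and 3 this held for 569 of 963, 26 of 46 and 6 of 10 pairs. In 66 of the 275 treated groups a number was repeated, so leaving out 1 number can remove more than 1 array of a group.

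Named were all 10 members, for each the called compounds with the 3 largest and 3 smallest changes, the 5 comparisons with the most members higher and lower (ties by mean change), genes among the most called of each list, and the genes most and least like the member mean. The members and lists were chosen with earlier results of these data known. Listed genes without a 1-symbol probe set, Ern1 among them, were not analysed here. Alternatives concerned moderation, the fold bound, controls, exposure time, scaling, probe set choice, low genes, hybridization day, the replicate number and leaving out replicates.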

Additional observations from a re-analysis of the deposited data

Results flagged for a closer look

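Of 140 groups of arrays tested for a value far from the others, 3 had one, where chance gives about 1 in 20. Hyou1 had 1 high array among the 6 streptozotocin arrays, replicate 1 at 0.67 d, with a log2 signal of 8.70 while the other 5 lay at 7.95 to 8.19. Dnajc3 had 1 low array among the 6 cisplatin arrays, replicate 1 at 1 d, at 10.8 while the others reached up to 11.06. Pdia4 had 1 low array among the 6 pemoline arrays, replicate 2 at 1 d, at 8.82 while the others lay at 9.68 to 10.13.

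The change of Sdf2l1 with cisplatin went opposite ways at the 2 times, 0.26 at 1 d and -0.11 at 0.67 d. The difference of 0.37 was not called by the interaction test (limma, adjusted p = 1.00, 95% interval -0.34 to 1.08).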

How the results depend on the processing

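No member call changed direction under any alternative. The 293 higher calls became 146 at a 2-fold bound and 135 with the 0.67 d arrays alone. They became 214 to 291 without 1 replicate number, which can take out more than 1 array of a group. They were 285 to 304 under other scalings and 239 with hybridization day as a fixed block, which could be fitted for 127 of 128 comparisons and kept 228 of the calls. The 5 lower calls became 2 without moderation, with the 0.67 d arrays or with hybridization day fixed, 0 at a 2-fold bound or with the 1 d arrays, 12 against all controls of the campaign, and 3 to 8 without 1 replicate number. The 22 comparisons with 5 or more members higher became 13 at a 2-fold bound, 7 with the 0.67 d arrays, and 13 (without replicate 1) to 23 without 1 replicate number.

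In campaigns 1 to 3 the samples share only a number. There the replicate block gave 332 higher calls in place of 293, of which 277 were shared, 7 lower, and 6 time differences in place of 0. In campaigns 4 and 5, where the number pairs arrays, the replicate block gave 2 calls in place of 0. For the related compounds it gave 1 call in place of 2, as did subtracting the array median, with 0 to 2 without 1 replicate number. The 2-dose contrasts gave 18 calls with the block in place of 15, and 11 without any 1 number, with all losses among colchicine and gentamicin. Dose slopes gave 0 to 1 calls without 1 replicate number, and the 1 was Dnajb9 with methapyrilene. The cause of these moves was not tested. With 3 arrays a dose, campaign 5 allows only wide intervals, and signals near the array background were not separated from absence.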
